A study of Mus musculus with 8 samples.

Results

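Adult neurogenesis in the hippocampus was followed through 9 genes of progenitors, dividing cells and immature neurons (*Nes*, *Hopx*, *Mki67*, *Top2a*, *Eomes*, *Neurod1*, *Sox11*, *Igfbpl1* and *Dcx*), chosen by name for their known roles, with earlier results of these data known. All 9 are among the 46517 genes of the bulk RNAseq tables, and 8 are among the 24051 genes of the snRNAseq matrices; *Neurod1* was not analysed here in nuclei. Mutant mice carried Gfap-Cre and Wlsfl/-, and control mice carried Gfap-Cre and Wlsfl/+, so that Cre recombinase was present in both genotypes. *Wls* encodes the carrier that Wnt proteins need in order to be secreted. The control mice kept 1 functional copy in the recombined cells, and the study mapped the activity of this Cre to the medial and dorsal cortex of the embryo, including the cortical hem, so that it was not limited to adult stem cells. Bulk RNAseq used both hippocampi of a single mouse per library, from mice of 12 weeks, with 2 mutant and 2 control mice, and snRNAseq had 2 mutant and 2 control libraries as well, each from 1 mouse.

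In the dentate gyrus of the adult mouse, radial glia-like stem cells in the subgranular zone divide rarely and give rise to intermediate progenitors, which divide, become neuroblasts and mature into granule cells. Stem cells express *Nes* and *Hopx*, dividing cells express *Mki67* and *Top2a*, intermediate progenitors express *Eomes* and then *Neurod1*, and neuroblasts and immature neurons express *Sox11*, *Igfbpl1* and *Dcx*. None of these genes belongs to 1 stage or 1 cell type alone: astrocytes also express *Hopx*, vessel cells express *Nes*, and neurons outside the dentate gyrus can express *Dcx* and *Sox11*.

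The promoters of both proliferation genes are shown here because genes that are transcribed in dividing cells often carry the CCAAT box, bound by NF-Y, and the cell cycle homology region. The sequences are the 250 bases before the gene start from RefSeq (GRCm38.p6), 5′ to 3′ on the strand of the gene, which is the minus strand for both. Capitals mark CCAAT and TTTGAA on either strand (ATTGG and TTCAAA where the match is on the other strand).
Mki67, chr7:135716380-135716629: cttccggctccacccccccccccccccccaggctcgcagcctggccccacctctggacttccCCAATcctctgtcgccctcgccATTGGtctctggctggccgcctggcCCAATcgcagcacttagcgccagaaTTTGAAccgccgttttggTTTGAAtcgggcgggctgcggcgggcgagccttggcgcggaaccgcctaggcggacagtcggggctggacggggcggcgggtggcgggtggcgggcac
Top2a, chr11:99024190-99024439: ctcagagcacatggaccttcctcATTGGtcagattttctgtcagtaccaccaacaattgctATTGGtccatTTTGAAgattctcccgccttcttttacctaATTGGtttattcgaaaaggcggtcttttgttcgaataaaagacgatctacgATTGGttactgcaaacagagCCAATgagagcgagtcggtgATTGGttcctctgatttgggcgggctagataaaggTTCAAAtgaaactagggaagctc
The *Mki67* window holds 3 CCAAT and 2 TTTGAA matches, and the *Top2a* window holds 6 and 2. Of 32851 promoters of the same length, 33.8% hold CCAAT and 16.0% hold TTTGAA on either strand. A promoter was found for 8 of the 9 genes, all but *Igfbpl1*. CCAAT is not limited to the proliferation genes. *Sox11* has 1 match of each kind, *Eomes* has 2 CCAAT matches, each of the 2 *Hopx* windows has 1, and 1 of the 2 *Dcx* windows has 1. The *Neurod1* and *Nes* windows have neither motif. The letters CTTTGA, the core that LEF/TCF factors bind downstream of Wnt, are in 13.8% of all promoters and in none of the windows of these 8 genes.

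Libraries were examined before the genes were compared. Bulk libraries held 56002381 to 79576196 expected counts, and snRNAseq libraries held 5304 to 10460 nuclei and 26307081 to 76486132 UMIs. *Wls*, the targeted gene, was at 3.67 and 6.86 CPM (counts per 1000000 counts of the library) in the 2 bulk mutants and at 13.2 and 13.0 in the controls. Although the labels call the mice male, bulk replicate 2 of both genotypes had high *Xist* (230 CPM in the mutant and 518 in the control) and *Ddx3y* under 0.4 CPM, while replicate 1 of both had the reverse. The mutant to control ratio of each replicate number is therefore given beside the bulk values, since it compares libraries that are alike in *Xist*; the ratio of replicate 1 is the value without the 2 libraries that go against their label. All 4 snRNAseq libraries had the pattern of males. Their libraries shared between 8 and 21 cell barcodes in each pair, of 29425 nuclei in all.

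The cell types of the nuclei are the authors'. Granule cells (GC), CA1, CA2 and mossy cells (MC), astrocytes, oligodendrocytes and their precursors (OPC), microglia and choroid plexus (CP) each had the highest level of their own defining markers. The markers of CA3 were highest in excitatory neurons 13, and the nuclei called inhibitory neurons 14 (spelled inhibtory in the files) held markers of endothelial and mural cells at 3321 to 4270 CPM and markers of inhibitory neurons at 155 to 507 CPM. None of the 21 types is named for progenitors, neuroblasts or immature granule cells. GC nuclei numbered 90 and 463 in mutant replicates 1 and 2, against 2336 and 2007 in control replicates 1 and 2.

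In bulk hippocampus the genotypes did not overlap for 6 of the 9 genes, but *Neurod1* alone passed an FDR of 0.05, and only without a limit on fold. *Nes*, *Hopx* and *Eomes* overlapped. For the 6 genes (*Mki67*, *Top2a*, *Neurod1*, *Sox11*, *Igfbpl1* and *Dcx*) both mutant libraries lay below both control libraries, and for none of the 9 did both lie above; of all 20687 genes tested, 25.4% had both mutants below and 25.8% had both above. No member passed the study's limits of a fold change (FC) over 3 and a false discovery rate (FDR, the adjusted p of edgeR's quasi-likelihood test) under 0.05, where 0.198% of all genes were lower and 0.0193% higher, and DESeq2 and limma called none of the 9 at these limits. Without the limit on fold, *Neurod1* alone passed, and 1.01% of all genes were lower at that rule. At an unadjusted p under 0.05, 5 of the 9 were lower and none was higher, where 9.94% of all genes were lower and 8.86% higher. The median log2 fold change of the 9 genes was -0.57, and that of all genes was 0.01. In bulk tissue, fewer cells of a type and less RNA per cell cannot be told apart.

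**Figure D1:**
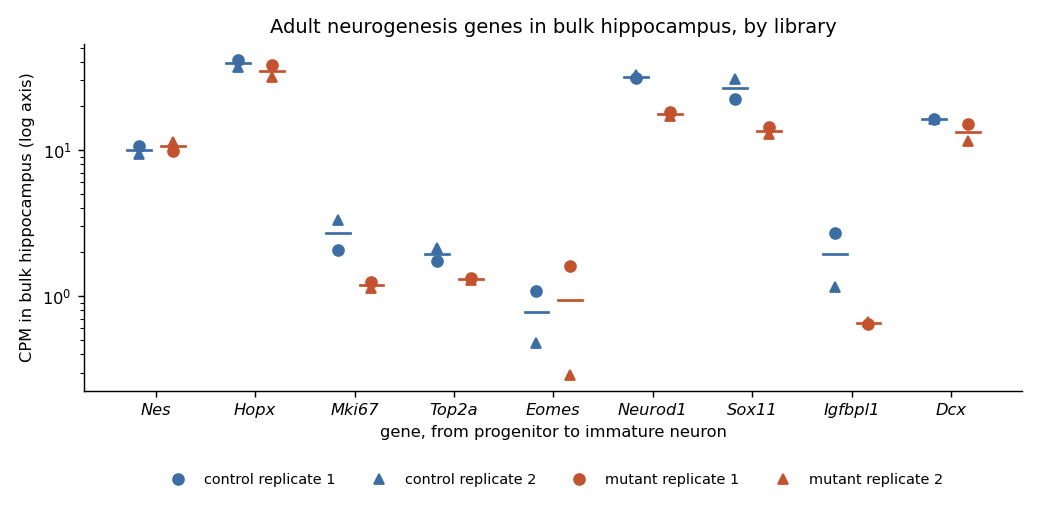
Levels of the 9 genes in bulk hippocampus as CPM on a log axis; each point is 1 library (circles replicate 1, triangles replicate 2, blue control, orange mutant) and each line is the mean of 2 libraries. Both mutant points lie below both control points for Mki67, Top2a, Neurod1, Sox11, Igfbpl1 and Dcx, and the genotypes overlap for Nes, Hopx and Eomes.

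The stem cell genes did not separate the genotypes. *Nes*, an intermediate filament of neural stem cells (ENSMUSG00000004891, mm10 chr3:87971078-87980451, plus strand), was at 9.80 and 11.4 CPM in the mutants and at 10.6 and 9.40 CPM in the controls. Its log2 fold change, mutant minus control, was 0.09 ± 0.13 (SE, n = 2 against 2), with an adjusted p of 0.789 in edgeR. *Hopx*, a homeodomain-only protein (ENSMUSG00000059325, mm10 chr5:77086988-77115121, minus strand), was at 38.0 and 31.6 CPM in the mutants and at 41.4 and 36.9 CPM in the controls. Here the log2 fold change was -0.17 ± 0.11, with an adjusted p of 0.486 in edgeR. The antisense gene *Hopxos* lies within *Hopx*, and whether strand was used in counting is not given in the sources used here, so reads of the pair cannot be told apart. By TPM, which takes gene length into account, *Hopx* was the most abundant of the 9 genes, at 60.5 to 81.5 TPM, and *Nes* was at 3.28 to 3.93 TPM.

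Both proliferation genes had lower values in both mutants, and neither passed the test. *Mki67* encodes a protein that coats mitotic chromosomes (ENSMUSG00000031004, mm10 chr7:135689784-135716361, minus strand). It was at 1.24 and 1.13 CPM in the mutants and at 2.07 and 3.31 CPM in the controls, from 73 to 222 counts per library. The mutant values were close to each other, and the lower control was above both. The log2 fold change was -1.18 ± 0.29, with an unadjusted p of 0.0079 and an adjusted p of 0.128 in edgeR. Within replicate 1 the log2 ratio of mutant to control was -0.74, and within replicate 2 it was -1.55. *Top2a*, the topoisomerase that untangles replicated chromosomes (ENSMUSG00000020914, mm10 chr11:98992943-99024189, minus strand), was at 1.33 and 1.28 CPM in the mutants and at 1.74 and 2.14 CPM in the controls. Its genotypes did not overlap, and its log2 fold change was -0.57 ± 0.22, with an adjusted p of 0.251 in edgeR. Ratios within replicates 1 and 2 were -0.39 and -0.74 on the log2 scale. DESeq2 placed *Mki67* at an adjusted p of 0.0364, and over all alternatives its adjusted p ran from 0.0082 to 0.657.

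The other genes of proliferation did not share this pattern as a list, but the list does not read dividing cells alone. In nuclei its summed level was highest in oligodendrocytes, at a mean of 400 CPM, followed by OPC at 115 CPM. Of 27 listed genes of replication and mitosis 25 were tested, 15 were lower and 10 were higher, and their median log2 fold change was -0.03. None passed both limits in edgeR or DESeq2. At an unadjusted p under 0.05 in edgeR 2 were lower and 0 higher, where 9.94% of all genes were lower and 8.86% higher. *Mcm6*, a subunit of the replicative helicase, passed the FDR alone. *Mcm6* was at 1.85 and 1.61 CPM in the mutants and at 5.44 and 4.62 CPM in the controls, a log2 fold change of -1.54 ± 0.19 with an adjusted p of 0.0406 in edgeR. *Kif15*, a mitotic kinesin, was at 0.850 and 0.729 CPM in the mutants and at 0.868 and 1.49 CPM in the controls, with an adjusted p of 0.434 in edgeR. For 4 of the 25 both mutants lay below both controls, and for 6 both lay above, against 25.4% and 25.8% of all genes. Of 17 other progenitor genes none passed the FDR in edgeR, with 2 lower and 2 higher at an unadjusted p under 0.05, and DESeq2 called none at both limits; 10 were lower and 7 higher, and their median was -0.06. *Thbs4* was at 2.16 and 4.06 CPM in the mutants and at 4.89 and 4.50 CPM in the controls, with an adjusted p of 0.391 in edgeR.

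Intermediate progenitor genes differed from each other. *Eomes*, the T-box factor also called Tbr2 (ENSMUSG00000032446, mm10 chr9:118478212-118486132, plus strand), was at 1.60 and 0.289 CPM in the mutants and at 1.08 and 0.477 CPM in the controls. Replicate 1 was the higher library in both genotypes, and the genotypes overlapped. The log2 fold change was 0.26 ± 0.84, with an adjusted p of 0.906 in edgeR, and its sign changed when single libraries were left out. The antisense gene *Gm33460* overlaps *Eomes*. *Neurod1*, a basic helix-loop-helix factor of newborn neurons that granule cells keep expressing (ENSMUSG00000034701, mm10 chr2:79452521-79456751, minus strand), had the smallest error of the 9. It was at 18.0 and 17.1 CPM in the mutants and at 31.0 and 32.5 CPM in the controls, and the values within each genotype were close. It was 1.81-fold lower, with a log2 fold change of -0.85 ± 0.08 and an adjusted p of 0.0247 in edgeR. Ratios within replicates 1 and 2 were -0.78 and -0.93. Over all alternatives its adjusted p ran from 2.93e-12 to 0.275; leaving out control replicate 1 gave 0.198, and leaving out control replicate 2 gave 0.275. With a term for replicate number, which also separates the libraries with high *Xist*, it was 0.0547. *Cerkl*, on the same strand, and the lincRNA *Gm26755* overlap *Neurod1* in the annotation.

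The neuroblast genes had lower values in both mutants, and none passed the test. *Igfbpl1* encodes a secreted protein related to IGF binding proteins and marks early neuroblasts (ENSMUSG00000035551, mm10 chr4:45809468-45826923, minus strand). It was at 0.646 and 0.666 CPM in the mutants and at 2.71 and 1.15 CPM in the controls, from 38 to 153 counts per library. The controls differed from each other by more than the mutants did, and both lay above the mutants. The log2 fold change was -1.55 ± 0.45, with an adjusted p of 0.175 in edgeR, and the ratios within replicates 1 and 2 were -2.07 and -0.78. Without control replicate 1 the log2 fold change was -0.80. *Sox11*, a SoxC factor of immature neurons (ENSMUSG00000063632, mm10 chr12:27334264-27342574, minus strand), was at 14.3 and 12.9 CPM in the mutants and at 22.4 and 30.8 CPM in the controls. Its log2 fold change was -0.97 ± 0.17, with an unadjusted p of 0.0020 and an adjusted p of 0.0808 in edgeR. Within replicates 1 and 2 the ratios were -0.65 and -1.26, and over all alternatives the adjusted p ran from 6.31e-06, in DESeq2, to 0.388.

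*Dcx*, a microtubule-associated protein of migrating neuroblasts (ENSMUSG00000031285, mm10 chrX:143855842-143933311, minus strand), had the smallest difference among the genes that did not overlap. It was at 14.9 and 11.6 CPM in the mutants and at 16.3 and 16.4 CPM in the controls. The log2 fold change was -0.31 ± 0.15, with an adjusted p of 0.340 in edgeR, and the ratios within replicates 1 and 2 were -0.13 and -0.50. None of *Nes*, *Sox11*, *Igfbpl1* and *Dcx* has another gene overlapping it in the annotation.

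Other genes of immature neurons moved in both directions, but the list does not read immature neurons alone. In nuclei its summed level was highest in excitatory neurons 13, at a mean of 1033 CPM. All 23 listed genes were tested. Of these 13 were higher and 10 lower, with a median of 0.13, and none passed both limits in edgeR or DESeq2. At an unadjusted p under 0.05 in edgeR 7 were lower and 7 higher, where 9.94% of all genes were lower and 8.86% higher. *Bhlhe22* and *Prdm8*, which encode partner repressors of transcription, were lower. *Bhlhe22* was at 85.6 and 87.8 CPM in the mutants and at 133 and 148 CPM in the controls, with an adjusted p of 0.0260 in edgeR. *Prdm8* was at 83.8 and 74.1 CPM against 116 and 112 CPM, with an adjusted p of 0.0470 in edgeR. *Cd24a*, a surface protein of neuroblasts and of ependymal cells, was higher, at 15.1 and 14.3 CPM in the mutants and at 6.63 and 7.16 CPM in the controls, with a log2 fold change of 1.10 ± 0.11 and an adjusted p of 0.0276 in edgeR. *Nhlh1*, a factor of newly formed neurons, had the largest fold in the list, at 0.255 and 0.0880 CPM in the mutants and at 1.17 and 1.94 CPM in the controls, with an adjusted p of 0.0806 in edgeR. The 10 ependymal genes were all higher, with a median log2 fold change of 1.19 and a summed level of 58.9 and 69.2 CPM in the mutants against 33.3 and 22.8 CPM in the controls. At both limits edgeR called 1 of them higher (*Dynlrb2*) and DESeq2 called 3.

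Markers of 2 other cell types differed between the genotypes in bulk beside these values. The 8 genes of mature granule cells were all lower, at a summed 144 and 134 CPM in the mutants and 512 and 518 CPM in the controls, and 5 passed both limits. The 18 choroid plexus genes were all higher, at a summed 1344 and 8970 CPM in the mutants and 462 and 346 CPM in the controls. *Ttr* alone was at 635 and 4963 CPM in the mutants. None of the 18 passed the limits in edgeR, and DESeq2 called 14. At an unadjusted p under 0.05 in edgeR 16 were higher, where 8.86% of all genes were higher. In nuclei *Ttr* was at 1.18 and 147 CPM in mutant replicates 1 and 2 and at 155 and 6.61 CPM in the controls, with overlap. The paper reads the higher choroid plexus transcripts of its bulk mutants as likely contamination during dissection. Lists of olfactory neuroblasts, Cajal-Retzius cells and vessel cells had medians of 0.19, 0.01 and 0.17, with no gene past the limits in either tool. The part of any of these lists in the differences of the 9 neurogenesis genes was not tested.

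**Figure D2:**
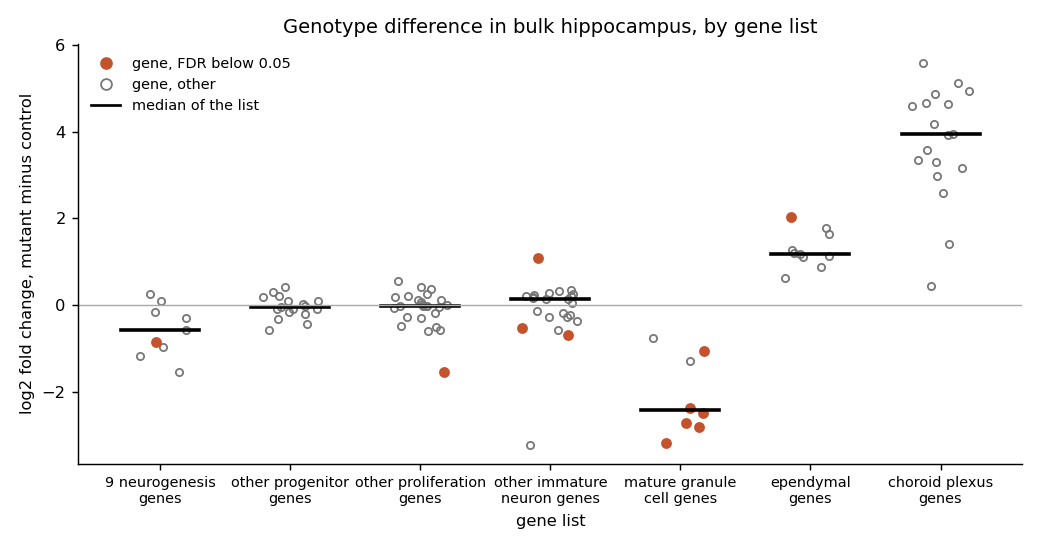
Log2 fold changes, mutant minus control, in bulk hippocampus for the 9 neurogenesis genes and 6 lists; each point is 1 gene, filled where the FDR is below 0.05, and black lines are medians. The medians of the other progenitor (-0.06), proliferation (-0.03) and immature neuron genes (0.13) lie near 0, the mature granule cell genes lie lower, and the ependymal and choroid plexus genes lie higher.

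In nuclei the same genes were first located among the cell types. *Eomes* was nearly absent, with 5 UMIs in all 29425 nuclei, in 0 and 1 nuclei of the mutants and in 3 and 1 nuclei of the controls. The count of 0 in mutant replicate 1 allows up to 0.114 CPM. *Nes* had 109 UMIs, of which 55.8% in controls and 57.9% in mutants were in inhibitory neurons 14, a type with vessel markers. Its level there was 45.1 and 30.5 CPM in the mutants and 12.8 and 51.9 CPM in the controls. The type labelled EC, with 9 control and 15 mutant nuclei, had the highest mean level of the vessel markers. EC held 23.1% of the *Nes* UMIs of controls and 3.51% of those of mutants, which are 12 and 2 UMIs. Of the 12, 11 were in a single nucleus of control replicate 2 that held 73751 UMIs, so these shares do not compare the genotypes. *Hopx* was highest in astrocytes, at 106 ± 35 CPM (mean ± SD over 4 libraries). No other type overlapped them, and inhibitory neurons 14 came next at 13.0 ± 9.2 CPM. Astrocytes held 54.3% of the *Hopx* UMIs of controls and 41.4% of those of mutants, and CA3 held 10.9% and 22.8%. *Nes* and *Hopx* were seen together in 11 nuclei, 4 in mutants and 7 in controls.

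*Mki67* had 1756 UMIs, and these were mainly in neurons. Of the UMIs in controls, 52.5% were in GC, 19.8% in CA1 and 12.5% in CA3; in mutants 31.2% were in CA1, 19.7% in CA3 and 9.92% in GC. GC had the highest mean level, 20.8 ± 3.9 CPM, and overlapped oligodendrocytes at 11.9 ± 11.8 CPM, which rest on 27 UMIs. In GC the level was 26.6 and 18.1 CPM in mutant replicates 1 and 2 and 19.2 and 19.6 CPM in the controls, so that the genotypes overlapped. Its log2 fold change in GC was 0.05 ± 0.26, with an adjusted p of 0.992 in edgeR. Within GC, 12.2% and 13.0% of mutant nuclei and 8.86% and 14.1% of control nuclei had an *Mki67* UMI. With each nucleus thinned to 1500 UMIs these shares were 5.56% and 1.73% in mutants and 3.38% and 2.64% in controls. Microglia, which hold far fewer UMIs per nucleus, had *Mki67* in 0 of 345 mutant nuclei, which allows a share with a UMI of up to 0.870%, and in 2 of 392 control nuclei.

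Many nuclei with *Mki67* had no UMI of another proliferation gene, and nuclei without *Mki67* were not counted for comparison. Counted over 29 proliferation genes, *Mki67* and *Top2a* included, 63.9% and 45.9% of the *Mki67* nuclei in mutant replicates 1 and 2 and 64.2% and 44.6% in the controls had no other gene of the list. The deeper library of each genotype had the lower share. *Top2a* had 147 UMIs in all and met *Mki67* in 2 and 8 mutant nuclei and in 4 and 4 control nuclei, of 255, 447, 388 and 549 nuclei with *Mki67*. Only 3 nuclei held 10 or more of the 29 genes, and each was in another type. The first, in mutant replicate 2 and assigned to inhibitory neurons 14, held 30 UMIs of 13 proliferation genes. The second, in the same library and assigned to CA1, held 7 *Top2a* UMIs together with 4 of *Pdgfra* and 2 of *Olig1*, which mark oligodendrocyte precursors. That nucleus had no UMI of *Cspg4*, another of their markers, and 1 of *Csf1r*, a marker of microglia. The third, in control replicate 2 and assigned to inhibitory neurons 5, held 16 of the genes but no *Mki67* UMI. In it *Prox1*, *Gad2*, *Dcx*, *Sox11* and the excitatory neuron gene *Slc17a7* were each present at 1 or 2 UMIs. Depth limits this count, since a median nucleus held 4128 to 7544.5 UMIs depending on the library.

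*Igfbpl1* set a small group of control nuclei apart. It had 294 UMIs, and nuclei with 3 or more were found 5 times in control replicate 1, 7 times in control replicate 2, and in neither mutant library. Of these 12 nuclei, 9 were assigned to inhibitory neurons 5, and 11 held UMIs of *Gad1*, *Gad2* or *Dlx6os1*, genes of inhibitory neurons. *Slc17a7*, a gene of excitatory neurons, was in 4 of the 12, and a CA1 nucleus among them held 10 of its UMIs and 1 of *Gad1*. *Dcx* was present in 8 of them, *Sox11* in 3 and *Prox1*, used here as a granule cell marker, in 3. A *Prox1* nucleus assigned to inhibitory neurons 5 held 1 UMI of it with 5 of *Gad2*. Another, assigned to oligodendrocytes, held 6 of *Prox1* with 21 of *Dlx6os1*. A nucleus of control replicate 1 assigned to astrocytes held 7 *Igfbpl1* UMIs with 3 of *Prox1*, 1 of *Draxin* and 1 of *Calb2*, and also 7 of the astrocyte gene *Gja1*. In GC, where the lineage ends, *Igfbpl1* was in 18 of 4343 control nuclei (0.414%) and in 0 of 553 mutant nuclei, which allows a share with a UMI of up to 0.542% and says nothing of nuclei that express the gene without a UMI.

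**Figure D3:**
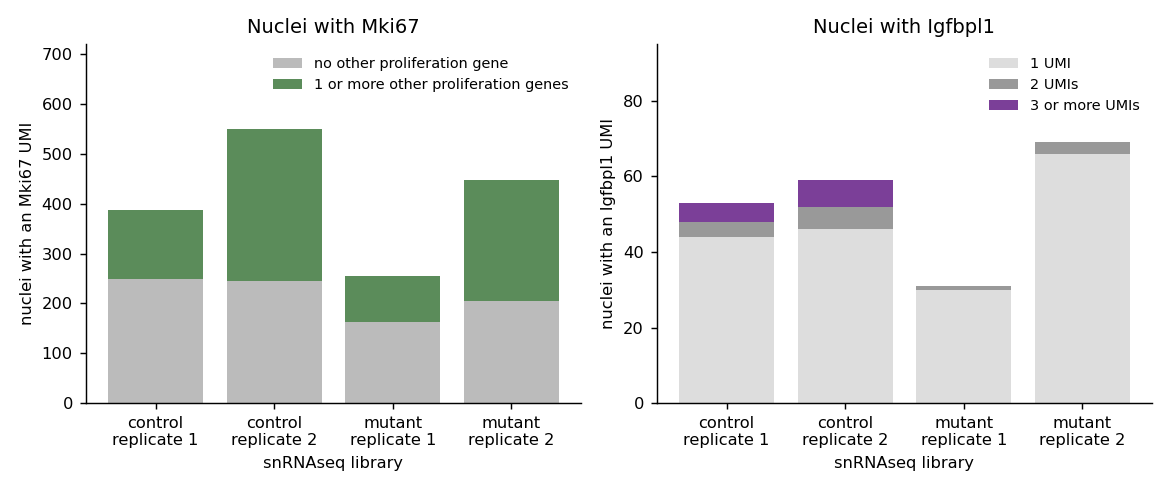
Numbers of nuclei per snRNAseq library: at left those with an Mki67 UMI, split by whether another of 29 proliferation genes was present, and at right those with an Igfbpl1 UMI, split by the number of UMIs. Nuclei with 3 or more Igfbpl1 UMIs number 5 and 7 in the control libraries and 0 in both mutant libraries.

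*Dcx* was highest in inhibitory neurons 5 and excitatory neurons 13, and low in granule cells. Inhibitory neurons 5 were at 106 ± 15 CPM and overlapped excitatory neurons 13 at 105 ± 31 CPM, which in turn overlapped inhibitory neurons 12 at 84.8 ± 3.5 CPM. Between the first pair the order turned with genotype, since excitatory neurons 13 had a TMM-scaled mean of 130 CPM and inhibitory neurons 5 one of 121 CPM in mutants, and 86.3 and 93.7 CPM in controls. Inhibitory neurons 18 followed at 76.3 ± 3.1 CPM without overlap with inhibitory neurons 12. OPC were at 65.6 ± 3.9 CPM. Inhibitory neurons 5 alone held 32.1% of the *Dcx* UMIs of controls and 31.0% of those of mutants. In GC *Dcx* was at 9.66 and 11.4 CPM in the mutants and at 11.0 and 8.18 CPM in the controls. Oligodendrocytes, which should lack it, had *Dcx* in 4 of 1185 mutant and 6 of 1261 control nuclei.

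*Sox11* was spread over neurons and precursors. Excitatory neurons 8 were highest at 52.6 ± 3.9 CPM, followed by excitatory neurons 10 at 45.7 ± 4.2 CPM and OPC at 44.6 ± 12.2 CPM, and each of the first 3 overlapped the next. GC held 40.3% of all control *Sox11* UMIs and 3.42% of those of mutants, where CA1 held most, 27.7%. *Sox11* and *Dcx* were seen together in 399 control and 554 mutant nuclei, and 58 of these in controls and 4 in mutants were GC. *Sox11* and *Igfbpl1* met in 26 control and 24 mutant nuclei, and *Eomes* and *Sox11* in none.

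Summed over all nuclei of a library, *Dcx* was higher in the mutant and *Igfbpl1*, *Hopx* and *Sox11* were lower, without overlap of the genotypes. No member passed FC over 2 and FDR under 0.05, nor did any of the 20575 genes tested in edgeR (0% in both directions; 8.49% lower and 6.3% higher at an unadjusted p under 0.05), while DESeq2 called 166 genes lower and 121 higher, *Dcx* among them. Both mutants lay below both controls for 24% of all genes and above for 24.5%. *Dcx* was at 61.9 and 35.9 CPM in the mutants and at 24.0 and 21.6 CPM in the controls, with a log2 fold change of 1.10 ± 0.27 and an adjusted p of 0.207 in edgeR. It was 0.0080 in DESeq2 and up to 0.612 over the alternatives, and without mutant replicate 1 the log2 fold change was 0.65. *Igfbpl1* was at 1.23 and 0.913 CPM against 2.18 and 1.73 CPM, a log2 fold change of -0.88 ± 0.34 with an adjusted p of 0.318 in edgeR. The 12 control nuclei with 3 or more UMIs held 30 of 82 and 50 of 108 of the control UMIs. Without them the controls were at 1.34 and 0.944 UMIs per 1000000, the mutants at 1.22 and 0.941, and the genotypes overlapped. These nuclei were left out by their *Igfbpl1* value, and no mutant nucleus met that cut. Only the controls could therefore fall, and no conclusion is drawn from the overlap. *Hopx* was at 3.31 and 5.31 CPM against 8.18 and 6.02 CPM, with an adjusted p of 0.374 in edgeR, and *Sox11* at 24.6 and 19.7 CPM against 28.0 and 26.9 CPM, with an adjusted p of 0.439 in edgeR. *Mki67*, *Top2a* and *Nes* overlapped between genotypes. These sums mix the level within a type with the number of nuclei of each type, and GC were fewer in the mutants.

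**Figure D4:**
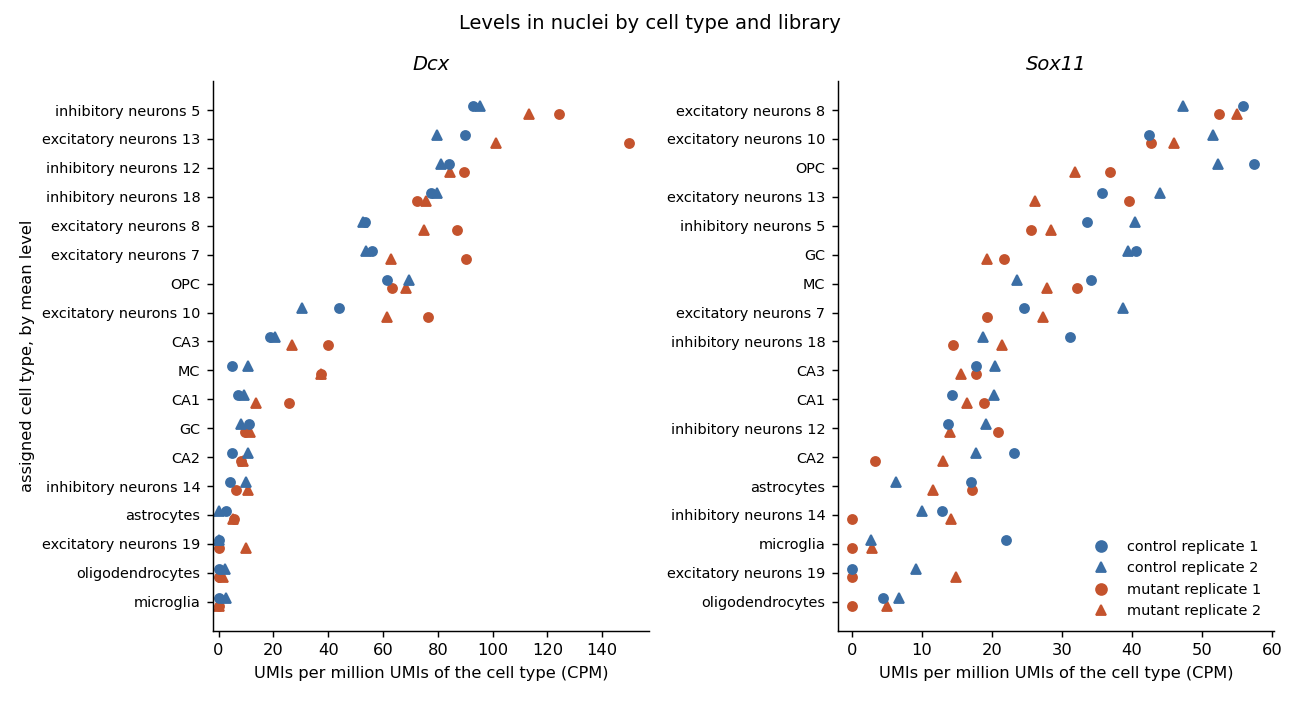
Levels of Dcx (left) and Sox11 (right) in 18 cell types as CPM, the UMIs per 1000000 UMIs of the type; each point is 1 library (circles replicate 1, triangles replicate 2, blue control, orange mutant), with types ordered by their mean. Orange points lie right of blue points for Dcx in most neuronal types and left of them for Sox11 in GC, OPC, CA2 and inhibitory neurons 5.

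Within cell types, 18 of 21 types had at least 10 nuclei in every library, and 44 combinations of a member and a type passed the filter on low counts. None of the 44 passed FC over 2 and FDR under 0.05, where 0.0889% of all tests were lower and 0.101% higher. DESeq2 called 1, *Dcx* in CA1, as higher, and in that type it called 7 of 16785 genes higher and 16 lower. At an unadjusted p under 0.05, 7 were higher, all of them *Dcx*, and 4 were lower, where 4.48% of all tests were higher and 4.82% lower. The same 4 mice underlie every type, so the types are not separate replicates.

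*Dcx* leaned higher in the mutant across neurons. Of 13 types tested 12 had a higher *Dcx* fold change in the mutant, and in 9 both mutants lay above both controls, against 20.6% of all tests in these types; 7 had an unadjusted p under 0.05, against 4.83%. In CA1 *Dcx* was at 25.4 and 13.6 CPM in the mutants and at 7.27 and 8.92 CPM in the controls, a log2 fold change of 1.24 ± 0.31 with an adjusted p of 0.421 in edgeR. Mutant replicate 1 was the highest, and the genotypes did not overlap. The unthinned shares of CA1 nuclei with *Dcx* were 10.9% and 10.4% in the mutants and 5.22% and 8.66% in the controls, and after thinning to 1500 UMIs they were 3.81% and 1.49% against 0.994% and 1.00%. Mossy cells gave the largest fold, at 40.6 and 40.1 CPM against 5.15 and 11.4 CPM, from 7, 35, 2 and 6 UMIs, with a log2 fold change of 2.18 ± 0.55 and an adjusted p of 0.106 in edgeR. In CA3 the values were 41.0 and 26.6 CPM against 19.1 and 19.9 CPM, and in inhibitory neurons 5 they were 126 and 115 CPM against 92.9 and 94.6 CPM. OPC and GC overlapped, as did CA2 and inhibitory neurons 18. In CA1 the adjusted p ran from 0.0204 to 0.484 over the alternatives. Mutant replicate 1, which had the highest *Dcx* in most of these types, also had the lowest median UMIs per nucleus, 4128; the part of depth in the difference was not tested.

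*Sox11* went the other way in granule cells. It was at 21.5 and 19.6 CPM in mutant GC and at 40.5 and 39.7 CPM in control GC, from 9, 66, 461 and 642 UMIs. The genotypes were well apart and the libraries within a genotype close, although mutant replicate 1 had 90 GC nuclei. The log2 fold change was -1.00 ± 0.22, with an unadjusted p of 0.0012 and an adjusted p of 0.0568 in edgeR (0.0053 to 0.480 over the alternatives); 0.64% of all genes were called lower in GC and 0.827% higher. Of GC nuclei, 8.89% and 12.7% of mutants and 16.3% and 24.4% of controls had a *Sox11* UMI, and after thinning to 1500 UMIs 4.44% and 3.46% against 5.82% and 5.58%. The paper places most of the granule cells that remain in mutants in the ventral dentate gyrus. The GC of the genotypes therefore differ in position, and its part in this difference was not tested. In CA1 *Sox11* was at 18.8 and 16.4 CPM in the mutants and at 14.8 and 19.8 CPM in the controls, with overlap. The difference of the 2 fold changes, GC minus CA1, was -0.97 ± 0.22 on the log2 scale, with an adjusted p of 0.0058 in edgeR with a term for each mouse, where 2.52% of all genes passed. This comparison was chosen after the values were seen. Its adjusted p was 0.0587 without mutant replicate 1, 0.550 without mutant replicate 2, 0.283 without control replicate 1 and 0.802 without the term for each mouse. Over 13 types both mutants lay below both controls in 4 (GC, OPC, CA2 and inhibitory neurons 5), against 20.8% of all tests in these types.

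*Igfbpl1* was apart in inhibitory neurons 5. It was at 0.912 and 1.32 CPM in the mutants and at 11.5 and 10.3 CPM in the controls, from 3, 11, 34 and 49 UMIs, and the genotypes did not overlap. The log2 fold change was -3.17 ± 0.41, with an unadjusted p of 1.8e-05 and an adjusted p of 0.0917 in edgeR (6.88e-09 to 0.104 over the alternatives); 0.00713% of all genes were called lower in this type. Leaving out any 1 library brought the adjusted p to between 3.27e-05 and 0.0135. Of the control UMIs, 23 of 34 and 39 of 49 were in the 4 and 5 nuclei with 3 or more each, and without these nuclei the level was 3.77 and 2.14 CPM in the controls. That level was still above both mutants, but its nuclei were left out by the value itself, so it is given without a test. The difference of the fold changes, inhibitory neurons 5 minus CA1, was -2.94 ± 0.56 with an adjusted p of 0.202 in edgeR, where 0% of all genes passed.

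*Hopx* in astrocytes overlapped between genotypes, at 105 and 71.9 CPM in the mutants and at 150 and 99.4 CPM in the controls, with a log2 fold change of -0.59 ± 0.25 and an adjusted p of 0.399 in edgeR. A single astrocyte nucleus of control replicate 1 held 24 of its 171 *Hopx* UMIs. *Wls* in the same nuclei was at 2.91 and 2.08 CPM in the mutants and at 49.9 and 39.6 CPM in the controls, with a log2 fold change of -4.28 ± 0.45 and an adjusted p of 0.00023 in edgeR. In GC *Wls* was low in both genotypes, at 4.78 and 5.64 CPM in the mutants and 3.33 and 4.45 CPM in the controls. *Mki67* was tested in 8 types, none with an unadjusted p under 0.05, and its lowest adjusted p was 0.815 in edgeR.

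**Figure D5:**
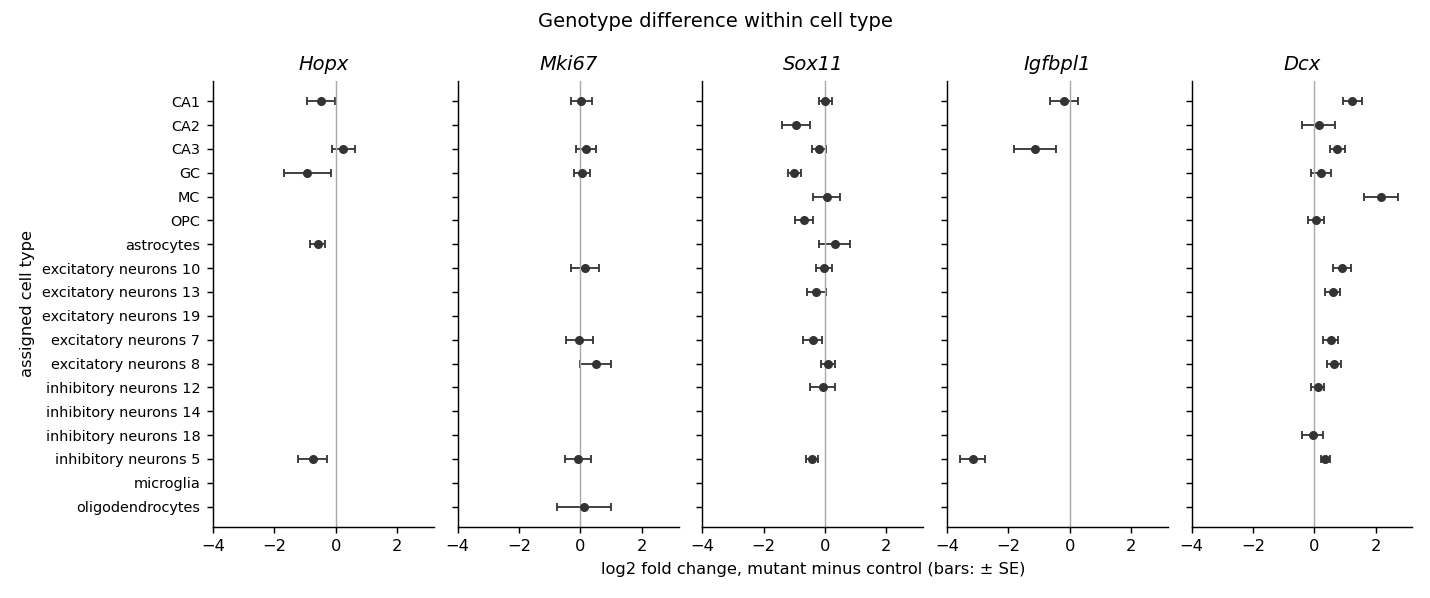
Log2 fold changes, mutant minus control, within cell types for 5 of the genes, with bars of 1 SE; a type without a point had too few UMIs to be tested. Dcx points lie above 0 in 12 of 13 types, Sox11 lies near -1.00 in GC, Igfbpl1 lies at -3.17 in inhibitory neurons 5, and Mki67 points lie near 0.

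Genes whose level followed a member over the 72 sums of a type and a library were found by Pearson's r of log2(CPM + 1), with no test, since the sums share libraries and types. *Dcx* was most like *Nipal2* (0.91), *Rims2* (0.88) and *Usp29* (0.87), and *Sox11* was most like *Lonrf2* (0.87), *Plppr5* (0.85) and *Lmtk3* (0.83). For *Mki67* they were *Rab11fip4os1* (0.74), *Trim2* (0.73) and *Ryr1* (0.73), none of them in the proliferation list. *Hopx* was most like *Prdx6* (0.69), *Cbs* (0.69) and *Adk* (0.66). No gene followed *Igfbpl1* closely, the first being *Olfm3* at 0.46.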

How the data were processed

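The authors aligned bulk reads with RSEM 1.3.0 and Bowtie2 2.2.9 to mm10 and deposited expected counts and TPM values per gene, and a matrix of signal, the expected counts divided by a size factor per library. For snRNAseq they deposited UMI counts per nucleus from Cell Ranger 3.1.0 and a cell type for each nucleus, which was used as given. Doublets were not searched for here. The authors' own fold changes and p-values were not used.

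Expected counts were rounded. Bulk counts, and UMIs summed per library and cell type (at least 10 nuclei in every library) or over all nuclei, were compared in edgeR 4.0.16 (R 4.3.3) with filterByExpr, TMM and the quasi-likelihood test, adjusted by Benjamini-Hochberg over all genes tested. EBSeq, which the study used for bulk, was replaced by edgeR. SE was obtained as the absolute log2 fold change divided by the square root of F. CPM values in comparisons are TMM-scaled; levels by cell type are UMIs per 1000000 UMIs of the type. By the study's methods, each library of either assay came from another mouse. Two-sided exact permutation cannot reach 0.05 with 2 against 2. Thinning drew 1500 or 1000 UMIs per nucleus. Shares and limits of 3 counts for a count of 0 cover counting error only.

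Members and gene lists were chosen with earlier results of these data known. Named genes are the 9 members, genes of the 3 lists that passed the FDR or had the 2 largest non-overlapping folds, and for likeness the 3 highest correlations for members with at least 200 UMIs. Nuclei and comparisons singled out were chosen after their values were seen. Alternatives were DESeq2 1.42.0, RLE scaling, no filter, no fold limit, limma 3.58.1 on log2(signal + 1), a replicate block, each library left out, and types of at least 50 nuclei. Ranges of adjusted p said to run over the alternatives, or over all of them, do not include the replicate block. The fits were tested on simulated data. Tables were read with pandas 2.3.3, numpy 2.4.6 and scipy 1.17.1, and figures were drawn with matplotlib 3.10.9.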

Additional observations from a re-analysis of the deposited data

Results flagged for a closer look

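*Dcx* differed in direction between the assays. In bulk hippocampus both mutants lay below both controls, with a log2 fold change of -0.31, and in the sum over all nuclei both mutants lay above both controls, at 1.10. The difference between the assays was not tested.

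The genotype difference of *Sox11* was lower in GC than in CA1 by -0.97 on the log2 scale in the test of the difference itself, with an adjusted p of 0.0058 in edgeR. The adjusted p was 0.0587 without mutant replicate 1, 0.550 without mutant replicate 2, 0.283 without control replicate 1 and 0.802 without a term for each mouse. The pair was chosen because its values had been seen to differ. By the paper, the GC that remain in mutants are mostly ventral, and the part of position was not tested.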

How the results depend on the processing

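With 2 mice per genotype, the number of members past the limits rested on the settings. Without the limit on fold, 1 member (*Neurod1*) passed in bulk, and in all nuclei *Dcx* passed under DESeq2 and with the replicate block, 1 each. Within cell types 2 lower and 1 higher test passed without a filter, 1 higher under DESeq2, and 1 lower and 2 higher with the replicate block. With a library left out, the log2 fold change of *Igfbpl1* in inhibitory neurons 5 ran from -3.53 to -3.04. Calls over all genes also rose where members were called. Without a filter 261 of 22999 genes were lower and 295 higher in GC, against 96 and 124 of 15003 in the main test. The block called 220 of 20575 genes lower and 223 higher in all nuclei, and 39 of 16785 lower and 85 higher in CA1. The main test called 0 in both. The causes were not tested. The block took the adjusted p of *Neurod1* in bulk from 0.0247 to 0.0547 in edgeR; its other changed calls were those counted above. The main tests did not take replicate numbers as pairs. Deviations of same-numbered libraries correlated at 0.064 in bulk and 0.52 in all nuclei, over 2 pairs. Within types they correlated at 0.39 in CA1, 0.33 in inhibitory neurons 5 and 0.19 in GC. Whether the numbers mark pairs was not tested.

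Directions that turned were those of small differences. *Eomes* in bulk was at -0.0079 with the replicate block, at -0.072 in limma and between -1.41 and 1.04 with a library left out. *Nes* ran from -0.032 to 0.19 in bulk and from -0.57 to 1.90 in all nuclei, and *Mki67* in GC from -0.087 to 0.41, with a library left out. The *Sox11* difference between GC and CA1 lost its call without the mouse term, at -1.03, and ran from -1.23 to -0.80 with a library left out.

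Depth limits the shares and the joint counts. Thinned to 1500 UMIs, *Mki67* and *Top2a* met in 0 control and 1 mutant nuclei, and *Sox11* and *Igfbpl1* in 0 and 1. The mean share of *Sox11* in GC, mutant minus control, was -1.75 percentage points at 1500 UMIs and -3.28 at 1000, where unthinned it was -9.50. For *Igfbpl1* in inhibitory neurons 5 it was -1.09 and -0.36, and for *Mki67* in GC it turned to -1.10 at 1000 UMIs.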
